A study of Homo sapiens with 2 samples.

Results

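The regions described here were strong CUT&Tag peaks for lysine lactylation that the list of the library labelled untreated held and the list of the library labelled lactate did not. They numbered 873 of the 43413 regions of the untreated-labelled list on chromosomes 1 to 22 and X. They were chosen by fold enrichment, the ratio of the summit to the local background, which had to be at least 5.5, and by distance: no region of the lactate-labelled list could lie within 1 kb. Both values come from the 2 lists that are compared. The number of regions, their enrichment and their lack of a counterpart are therefore a description and not a finding. Below, a counterpart (called a partner in the plots) means a region of the other list within 1 kb, and coordinates are on hg38.

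Both libraries came from CAL27, an established human cell line of oral squamous cell carcinoma. The lactate group was exposed to 10 mM lactate for 24 h and the untreated group received no treatment, with 1 library each and the same antibody against lactylated lysine on any protein. The lactate-labelled library held 15120031 tags and the untreated-labelled library 15696147. No comparison between them has a replicate check, so no test was run, and all 95% intervals (exact Clopper-Pearson for shares, exact Poisson for tags) cover counting error only. Regions of 1 library are not replicates of a condition.

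The names inside the files are at odds with the sample labels. The list deposited for the untreated sample records CAL27_la as its run name, its input and the stem of all its peak names, and the list deposited for the lactate sample records CAL27 in these places. A separate name line in each header carries the sample's own label. Which is right cannot be told from the files. The sample labels are used here, and if the lists were exchanged these 873 regions would be those of the lactate-treated cells alone.

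Lysine lactylation is an acyl mark that cells derive from lactate, and on histones it has been described at promoters and enhancers of active genes. In CUT&Tag an antibody brings the Tn5 transposase to the modified protein, and the DNA beside it is cut and tagged in place. A region is called where the tags at its summit, the pileup, exceed the local background. Of the markers of squamous epithelium, 15 of 17 genes in the lactate-labelled list and 12 of 17 in the untreated-labelled list held a region inside or within 1 kb, with KRT14 and KRT4 at 0 in both. Markers of other cell types also held regions, in 5 and 4 of 5 neuronal genes and in 4 and 4 of 5 endothelial genes, and in 3 and 2 of 5 blood, 3 and 3 of 5 fibroblast and 2 and 2 of 5 liver genes. The presence of a region inside a marker gene thus does not set the labelled cell type apart in these lists.

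Promoter windows of protein-coding genes in RefSeq run from 250 bp before to 50 bp after a transcription start (GRCh38.p14). Of the regions with a counterpart and a fold enrichment of 5.5 to 7, 21.2% of the 6998 assessed overlapped such a window. In the whole untreated-labelled list it was 14.3% of the 41745 assessed. Among the 873 regions, 829 were assessed and 37 overlapped a window (4.46%, interval 3.16 to 6.10). Of these, 6 sequences are shown because their genes carry the highest enrichment (SRP72, NFRKB and ANK2) or act in lysine modification and reading (KDM1A and MLLT3) or hold 2 of the 873 regions near 1 start (TRIM21, of which 1 overlaps the window). Capitals mark matches on either strand to the AP-1 motif (letters TGANTCA), the GC box (letters GGGCGG), the CCAAT box, the TATA box (letters TATAAA) and the E-box (letters CACGTG), and touching or overlapping matches run together.
SRP72, chr4:56467367-56467666, plus strand: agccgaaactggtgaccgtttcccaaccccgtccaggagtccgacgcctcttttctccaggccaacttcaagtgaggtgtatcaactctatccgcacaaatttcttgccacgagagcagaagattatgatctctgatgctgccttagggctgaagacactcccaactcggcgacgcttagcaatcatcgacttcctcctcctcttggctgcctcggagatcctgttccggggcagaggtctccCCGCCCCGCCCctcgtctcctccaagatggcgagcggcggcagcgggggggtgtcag
NFRKB, chr11:129895529-129895828, minus strand: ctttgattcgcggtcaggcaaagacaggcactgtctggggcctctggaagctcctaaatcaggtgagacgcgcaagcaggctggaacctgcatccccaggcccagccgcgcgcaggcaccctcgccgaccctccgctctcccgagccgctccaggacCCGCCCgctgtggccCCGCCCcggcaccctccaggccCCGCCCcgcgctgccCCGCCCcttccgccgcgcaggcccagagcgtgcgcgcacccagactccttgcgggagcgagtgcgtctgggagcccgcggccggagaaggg
ANK2, chr4:112817855-112818154, plus strand: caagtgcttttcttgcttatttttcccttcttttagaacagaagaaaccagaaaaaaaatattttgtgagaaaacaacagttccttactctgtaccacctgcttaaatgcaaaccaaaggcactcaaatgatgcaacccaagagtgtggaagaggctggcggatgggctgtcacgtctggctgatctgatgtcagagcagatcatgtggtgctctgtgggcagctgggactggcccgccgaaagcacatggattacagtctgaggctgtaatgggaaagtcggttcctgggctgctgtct
KDM1A, chr1:23019218-23019517, plus strand: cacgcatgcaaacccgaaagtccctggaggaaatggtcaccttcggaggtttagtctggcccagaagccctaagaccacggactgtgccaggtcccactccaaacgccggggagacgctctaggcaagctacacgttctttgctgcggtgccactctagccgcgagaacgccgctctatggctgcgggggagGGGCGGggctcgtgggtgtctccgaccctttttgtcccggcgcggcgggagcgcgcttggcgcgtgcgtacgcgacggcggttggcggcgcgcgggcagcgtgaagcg
MLLT3, chr9:20622450-20622749, minus strand: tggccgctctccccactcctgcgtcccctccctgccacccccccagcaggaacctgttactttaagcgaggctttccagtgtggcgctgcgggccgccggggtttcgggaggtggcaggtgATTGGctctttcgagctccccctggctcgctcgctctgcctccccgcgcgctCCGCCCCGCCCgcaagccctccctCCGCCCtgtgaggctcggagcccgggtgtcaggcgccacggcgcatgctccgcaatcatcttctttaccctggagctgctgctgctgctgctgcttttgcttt
TRIM21, chr11:4393653-4393952, minus strand: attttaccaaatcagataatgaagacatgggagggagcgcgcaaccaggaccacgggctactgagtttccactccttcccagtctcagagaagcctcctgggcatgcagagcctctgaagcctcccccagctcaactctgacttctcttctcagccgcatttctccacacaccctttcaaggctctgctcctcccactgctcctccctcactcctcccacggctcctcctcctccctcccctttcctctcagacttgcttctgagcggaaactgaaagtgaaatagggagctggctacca

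NFRKB held 4 GC boxes, MLLT3 3 and a CCAAT match, SRP72 2 and KDM1A 1, whereas the ANK2 and TRIM21 windows held no match to any of the 5 motifs. Over the 40 windows that the regions overlapped, 23 held a GC box (57.5%, interval 40.9 to 73.0), against 75.2% of the 1947 windows (interval 73.3 to 77.1) overlapped by untreated-labelled regions with a counterpart and a fold enrichment of 5.5 to 7, and 56.3% of all 22132 windows of protein-coding genes. The AP-1 motif was in 4 of the 40 windows (10.0%, interval 2.79 to 23.7), against 4.62% and 6.15%. Their median GC content was 59.5%, against 65.3% and 62.3%. Lactate-labelled regions without a counterpart, at a fold enrichment of at least 5.5, overlapped 201 windows. Of these, 66.7% held a GC box (interval 59.7 to 73.1) and 7.46% the AP-1 motif, and the median GC content was 65.0%. A match describes the letters of the window and not a bound site. Some genes have several starts and so several windows, among the 40 MAGT1 and OXTR. The windows of ALG12 and CRELD2 are nearly the same stretch on opposite strands. Windows are therefore not separate draws, and the intervals are too narrow. Windows on chromosome 8 were not used here.

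The 873 regions were narrow, low and close to the enrichment limit. They made up 2.01% of the untreated-labelled list and 7.06% of its 12357 regions at a fold enrichment of at least 5.5. The mirrored set, regions of the lactate-labelled list at the same enrichment with no untreated-labelled region within 1 kb, held 2431 regions, 4.85% of that list and 13.6% of its strong regions. Of the 873, 414 reached a fold enrichment of 6, 80 reached 7, 25 reached 8 and 2 reached 10. The share of regions without a counterpart was 12.9% at 5.5 to 6 and 0.494% at 10 and over in the untreated-labelled list. It was higher in the lactate-labelled list in every bin of enrichment, with 25.01% and 0.856% in these same bins.

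**Figure D1:**
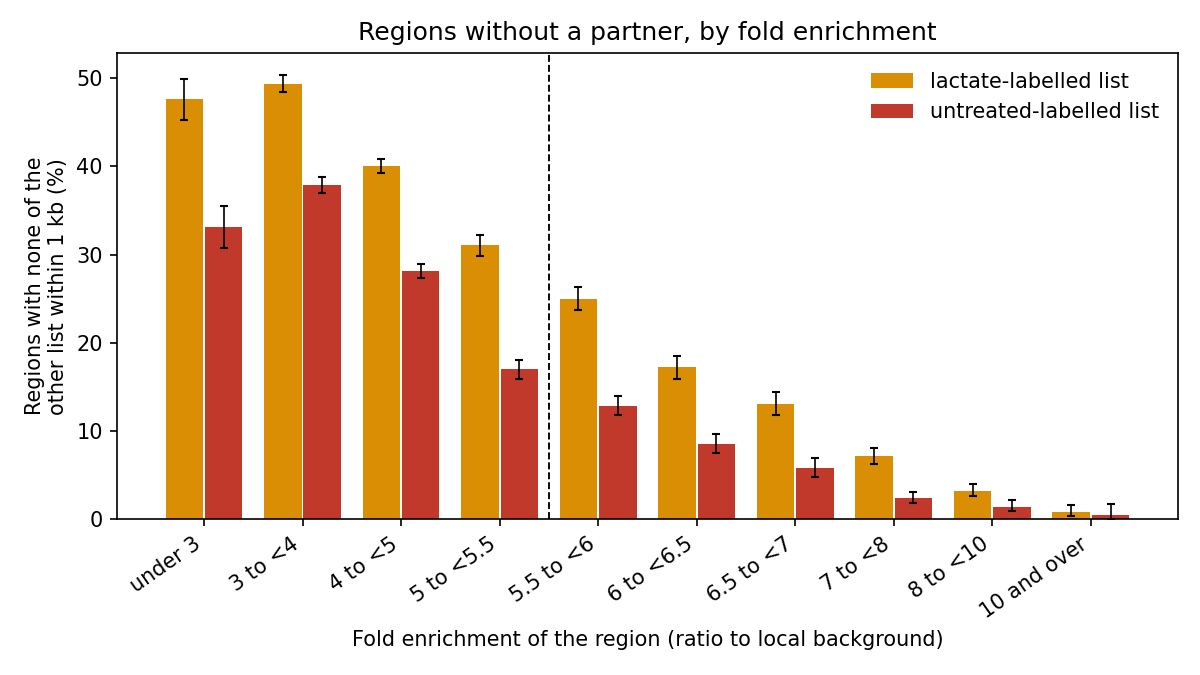
Percentage of regions with none of the other list within 1 kb (y axis), by fold enrichment of the region (x axis), with the lactate-labelled list in orange left of the untreated-labelled list in red. Error bars are exact 95% intervals for counting error and the dashed line marks 5.5, right of which the untreated-labelled share goes down bin by bin to 0.494%.

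At the limit itself, regions whose nearest protein-coding genes were LRRC7, ATP11B and TAS2R1, with 11 tags and a value of 5.505 each, were kept, and those of SLIT3 (5.497, 20 tags), TMEM135 (5.49, 18 tags) and UMODL1 (5.49, 25 tags) were not. At the limit of distance, regions of PPT1 and KIF16B, with a lactate-labelled region 1013 and 1016 bp away, were kept, and those of IGFBP7 and OLFM4, at 1000 and 938 bp, were not. The closest lactate-labelled region was at a median distance of 21.6 kb. It lay within 5 kb of 68 regions, between 5 and 10 kb from 148 and over 50 kb from 210 (24.1%). The longest distance, 971.0 kb, was from a region of 11 tags in CNTNAP2, a neuronal adhesion gene.

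The summits held 11 to 34 tags with a median of 13, over a median local background of 1.30 tags. Fewer than 20 tags lay under 813 of the 873 summits (93.1%, interval 91.2 to 94.7), against 56.8% of 7281 untreated-labelled regions with a counterpart and a fold enrichment of 5.5 to 7 (interval 55.6 to 57.9). Median lengths were 251 bp and 397 bp, and 861 of the 873 had a single summit. The mirrored lactate-labelled regions were much alike. They had a median of 14 tags and of 269 bp, with 85.2% under 20 tags and 96.1% with a single summit. Pileup and enrichment are tied, so these values describe the choice. At the depth and local background of each region, the lactate-labelled library could have held 5 tags in the median case, and up to 12, without being listed. This limit was estimated from the weakest peak of that list, at a recomputed −log10 p of 2.65. It takes no account of width, and no untreated-labelled or mirrored lactate-labelled region was shorter than 200 bp. A narrower signal could thus have held more tags than this limit and still not be listed. The lower Poisson bound of the tags, scaled for depth, was above that limit in 857 of the 873. Because the regions were picked as high in the untreated-labelled list, this count is no measure of how many differ. The same holds for the tag intervals and unlisted limits given for single genes below, and the limit carries no counting error of the lactate-labelled library. A region without a counterpart is thus one at which a signal was not listed, and not one shown to lack it.

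**Figure D2:**
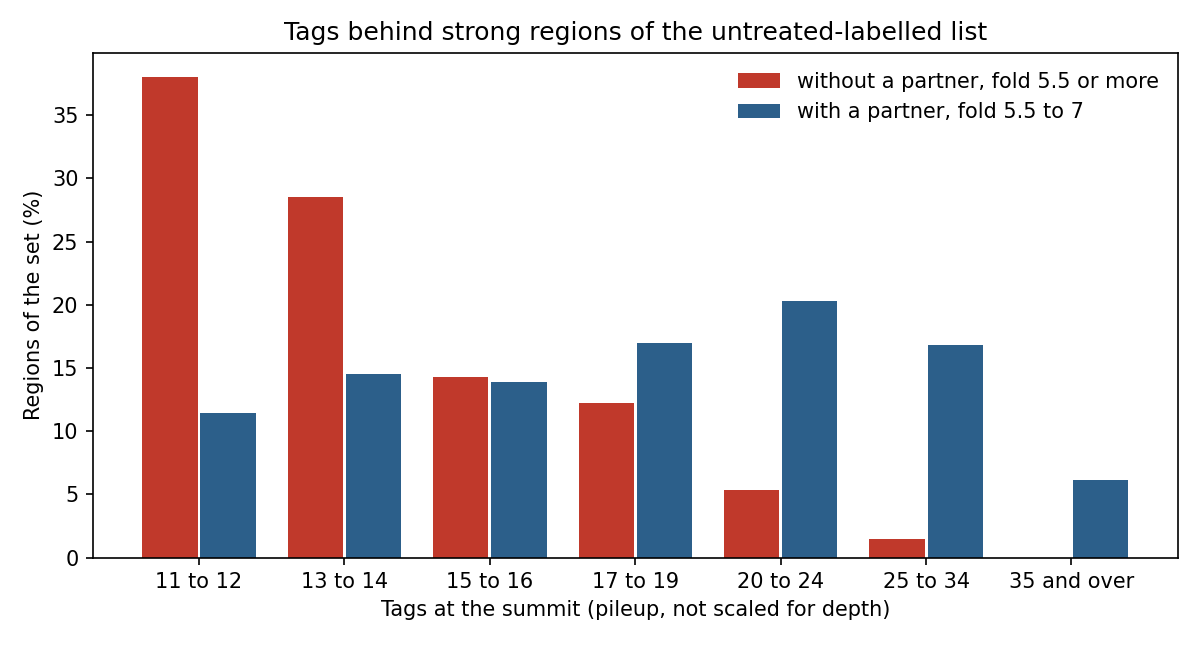
Tags at the summit (x axis, not scaled for depth) for the 873 regions without a counterpart (red) and the 7281 untreated-labelled regions with a counterpart and a fold enrichment of 5.5 to 7 (blue), as a percentage of each set (y axis). The regions without a counterpart crowd at 11 to 14 tags, and none of them reached 35.

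The next comparison asked where these regions lay. The rule did not use position itself, but it dropped regions within 1 kb of a lactate-labelled region. Of all 19974 protein-coding genes, 49.7% had a lactate-labelled region at an end, so position is not independent of the rule. Local background, which enters fold enrichment, was also lower here than in the regions with a counterpart and was not matched. How much either adds to the differences was not tested. The 873 regions were rare at gene ends and frequent far from genes. Only 63 of 873 (7.22%, interval 5.59 to 9.14) had their summit within 1 kb of either end of a protein-coding gene, against 1763 of 7281 regions with a counterpart at a fold enrichment of 5.5 to 7 (24.2%, interval 23.2 to 25.2) and 19.3% of the whole list. Of the 829 regions outside chromosome 8, 42 lay within 1 kb of a transcription start (5.07%, interval 3.68 to 6.79), against 23.1% of 6998. Another 345 had the summit in the body of a protein-coding gene, not at an end (39.5%, interval 36.3 to 42.9), against 34.9%. A further 143 lay inside other genes only (16.4%), and 322 outside annotated genes (36.9%), against 11.9% and 29.0%.

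Over 10 kb from the end of any gene lay 487 of the 873 regions (55.8%, interval 52.4 to 59.1), against 39.7% of the regions with a counterpart (interval 38.6 to 40.9) and 40.7% of the whole list. Over 100 kb from the nearest protein-coding gene lay 173 (19.8%, interval 17.2 to 22.6), against 11.7%. The median number of protein-coding genes within 500 kb was 6, against 8. Pileup moved with position: with both sets held to fewer than 20 tags, gene ends held 6.77% against 20.03%, and 56.9% against 46.8% lay over 10 kb from any gene end. With strong regions ranked by a recomputed −log10 p in place of enrichment, 44.8% against 35.2% lay over 10 kb from an end. Of the mirrored lactate-labelled regions, 8.89% lay at protein-coding gene ends (interval 7.78 to 10.1) and 50.6% over 10 kb from any gene end (interval 48.6 to 52.6).

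**Figure D3:**
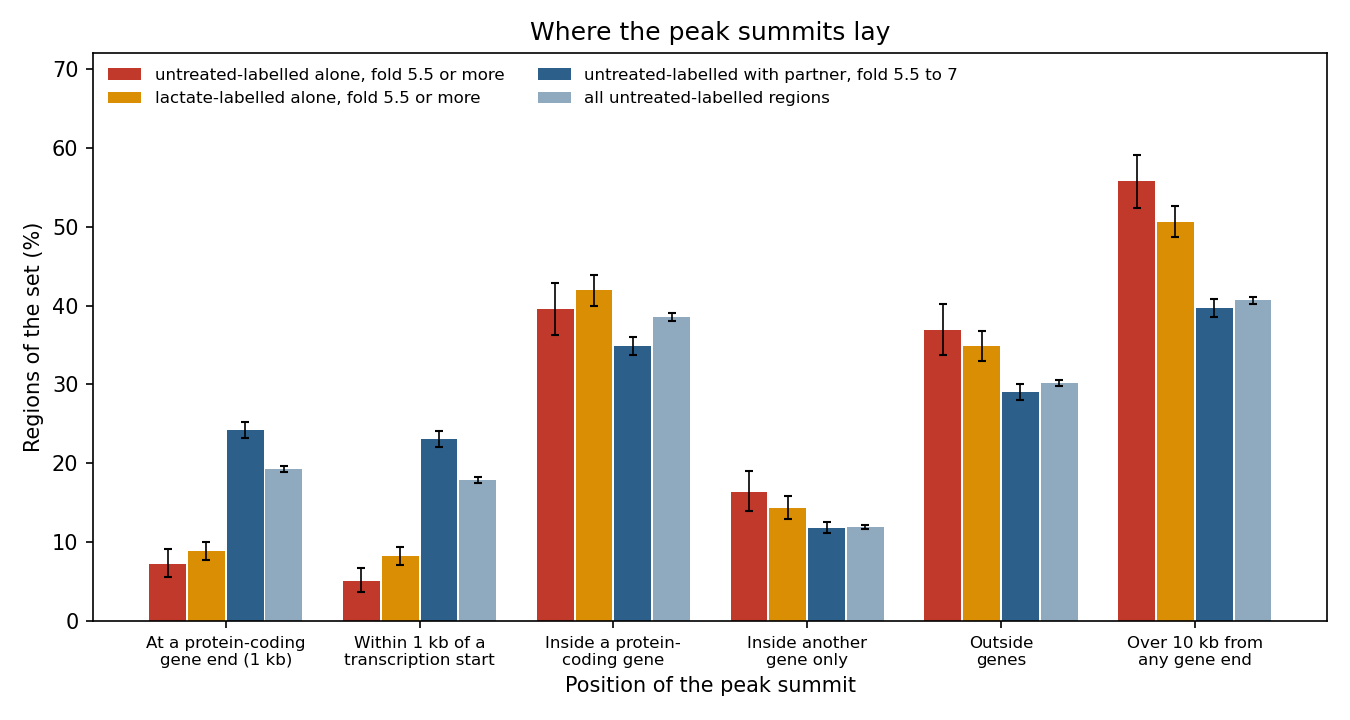
Percentage of each set of regions (y axis) with the summit at each kind of position (x axis), for the untreated-labelled regions without a counterpart (red), the mirrored lactate-labelled regions (orange), the untreated-labelled regions with a counterpart at a fold enrichment of 5.5 to 7 (dark blue) and the whole untreated-labelled list (light blue), with exact 95% intervals for counting error. The 2 sets without a counterpart are low at gene ends, at 7.22% and 8.89%, where the regions with a counterpart reach 24.2%.

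Where the regions were not at a gene end, the share of nearest protein-coding genes with a region at an end was near that of all such genes. Of 810 such regions, the nearest gene had a lactate-labelled region at an end for 398 (49.1%, interval 45.6 to 52.6) and an untreated-labelled one for 362 (44.7%, interval 41.2 to 48.2). Over all 19974 protein-coding genes these shares were 49.7% and 43.7%, and next to regions with a counterpart at a fold enrichment of 5.5 to 7 they were 53.3% and 47.5%. Host genes were long, with a median of 183.2 kb over 345 regions, against 145.4 kb for hosts of regions with a counterpart, and the summits lay at a median of 49.1% of the way along the gene, against 47.2%. Among non-coding genes, 159 regions overlapped a lncRNA gene (18.2%, against 19.8%), 1 the microRNA gene MIR4435-2 and 1 the small RNA gene SNAR-C3, and 0 of 873 overlapped a tRNA gene (interval up to 0.422%), against 30 of the 7281 with a counterpart (0.412%).

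The highest value, 11.9 with 23 tags, was on chromosome 16 between 34071480 and 34071737, 279.9 kb from CCNYL1B. The next lay on the same chromosome, between 28750174 and 28750404, inside the uncharacterised gene LOC124903761, with 10.3 and 23 tags. The region 669.5 kb from H3-7, on chromosome 1 between 143232715 and 143233319, had 9.21. These stretches of chromosomes 1 and 16 are known for repeats and near-identical copies, so the placing of reads there is uncertain.

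On chromosome 12, between 59150088 and 59150356, a region of 19 tags (interval 11.4 to 29.7) lay 229.7 kb from LRIG3 with a value of 9.94, and the lactate-labelled library could have held 5 tags there unlisted. EDN3, which encodes the peptide hormone endothelin 3, had a region of 23 tags (interval 14.6 to 34.5) 8.67 kb away, on chromosome 20 between 59291780 and 59292082, with 9.84. FOXN2, a forkhead transcription factor gene, had one 19.2 kb away with 9.13 and 20 tags. A region 183.9 kb from SOX9, a transcription factor gene whose distant enhancers are known from development, had 8.10 and 16 tags. Regions 9.81 kb from TSPAN12, inside another annotated gene, and 4.75 kb from EXOC1L had 8.70 and 8.45.

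Inside genes, BAZ2B, which encodes a bromodomain protein, held a region of 17 tags with a value of 8.94 on chromosome 2, between 159497288 and 159497564, 117.7 kb from the closest lactate-labelled region. NELL1 followed with 8.56, SH3BGRL2 with 8.51 and TDRD3, which encodes a Tudor domain reader of methylarginine, with 8.45. SLC25A21, a mitochondrial carrier of oxodicarboxylates, held a pair with 8.33 and 6.46. The urate transporter gene SLC2A9 held one with 8.27. MDGA2, a neuronal adhesion gene, held one with 8.26 at 755.2 kb from the closest lactate-labelled region. MME, which encodes the peptidase neprilysin, held one with 8.19 and PKD1L3 one with 8.05.

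Among the 63 regions at gene ends, that of SRP72, a protein subunit of the signal recognition particle, had a value of 8.06 and its summit 22 bp from the start, with 19 tags (interval 11.4 to 29.7) and an unlisted limit of 6. NFRKB, a subunit of the INO80 chromatin remodeller, had its summit 40 bp from the start with 14 tags (interval 7.65 to 23.5), over the window with 4 GC boxes shown above. Other ends in the set were those of IFNW1 (7.45), UBE2L5 (7.24), ENTPD3 (6.80), DSTYK (6.72), RBBP9 (6.58), MAGT1 (6.36), PPTC7 (6.34), CPQ (6.31), CBR1 (6.25), GUCY2D (6.22), STUM (6.20), TTC12 (6.19), LATS2 (6.16), TRIM68 (6.15) and ZNF530 (6.11), and one shared by TM2D2 and ADAM9 (6.20). LATS2 is a Hippo pathway kinase gene that restrains YAP, and MAGT1 a magnesium transporter and oligosaccharyltransferase subunit gene. IFNW1 and UBE2L5 have close copies, so their reads are uncertain.

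TRIM21, which encodes a ubiquitin ligase that binds antibodies in the cytosol, held a pair of regions at its start, with 16 tags (fold enrichment 6.07) and 15 tags (5.80). The closest lactate-labelled regions were 87.2 and 86.8 kb away. TRIM68, on the same stretch of chromosome 11, held another with 14 tags (6.15), 114.3 kb from the closest lactate-labelled region. The pair at TRIM21 was picked out after its values were seen.

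For the gene lists, each region was counted under its host gene or, outside genes, under the nearest protein-coding gene at any distance. Neuronal and synaptic genes were counted for 18 of the 873 regions (2.06%, interval 1.23 to 3.24), against 0.797% of regions with a counterpart at a fold enrichment of 5.5 to 7 (interval 0.605 to 1.03) and 1.03% of the whole list. They included RELN (7.21) and SLIT2 (6.46) from the inside and LRP1B (7.45) from outside. Of the 18, 12 lay outside the gene that they were counted under, by 60.1 to 806.6 kb, and LRP1B and CSMD3 were counted for 3 regions each. The mirrored lactate-labelled regions gave 1.56%. G protein-coupled and adhesion receptor genes were counted for 16 (1.83%, interval 1.05 to 2.96), against 0.893%, among them ADGRL3 (6.72) and ADGRV1 (6.37), with 11 of the 16 outside the genes, by 2.76 kb (OR14I1) to 4805 kb (OR11H1).

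Solute carrier genes were counted for 27 (3.09%, interval 2.05 to 4.47), against 2.21%. Ion channel genes were counted for 15 (1.72%), among them SCN8A (6.85), KCNK2 (6.60) and KCNQ5 (6.46), against 1.11%, and matrix and integrin genes for 13 (1.49%), among them COL4A2 (7.14), ITGBL1 (6.96) and ITGB6 (5.56), against 0.961%. Ubiquitin ligase and protease genes were counted for 11 (1.26%, interval 0.631 to 2.24, against 1.81%), kinase and growth factor signalling genes for 3 (0.344%, interval 0.0709 to 1.001, against 0.797%), with PIK3R1 at 7.20, and protein phosphatase genes for 7 (0.802%, interval 0.323 to 1.65, against 1.26%). Zinc finger ZNF genes were counted for 16 (1.83% against 2.01%), cadherins for 5 (0.573% against 0.536%) and interferon and interleukin genes for 3 (0.344% against 0.440%). The neuronal list was the only one of 16 lists whose interval did not overlap that of the regions with a counterpart. The mirrored lactate-labelled regions also lay above that interval for this list (1.56%, interval 1.11 to 2.14). With 16 lists looked at and several regions counted under 1 gene, this is a description and not a test.

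Genes of lactate handling and lysine acylation were counted for 6 regions (0.687%, interval 0.253 to 1.49), against 0.343%. SLC16A1, the lactate transporter MCT1, held 1 of 12 tags with a value of 6.07 on chromosome 1, between 112915713 and 112915951, 11.2 kb from the closest lactate-labelled region. SLC2A1, the glucose transporter GLUT1, had one 90.0 kb away with 18 tags (6.83). YEATS4, which encodes an acyl-lysine reader, held one with 16 tags (5.94), and MLLT3, another YEATS-domain reader, had one at its start with 19 tags (5.75, interval of the tags 11.4 to 29.7, unlisted limit 8). HDAC9, a histone deacetylase gene, held the remaining pair.

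Chromatin regulator genes were counted for 6 (0.687% against 0.577%), BAZ2B and NFRKB above, then KDM3A from 18.8 kb away (6.41), KDM1A (5.82), KDM2B (5.56) and CHD8 (5.51). The KDM1A region, at the start of the LSD1 histone demethylase gene, held 16 tags (interval 9.15 to 26.0, unlisted limit 7), and a lactate-labelled region lay 1.35 kb away, so it was among the 68 regions nearest to the limit of distance. Developmental and lineage transcription factor genes were counted for 16 (1.83% against 1.52%), including MEIS1 at its start with 19 tags (5.99), ESR1 from 8.48 kb away (6.80) and NFIA from the inside (5.83). Squamous genes were counted for 3 (0.344% against 0.385%), with KLF4 62.5 kb away (6.68), KLF5 86.2 kb away (5.97) and LAMA3 (5.96) as the only one with the region inside. The lists were made by name and overlap in part, and the same gene can hold several regions.

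The last comparison asked whether the regions lay together. Linked at 1 Mb, 422 of the 873 (48.3%, interval 45.0 to 51.7) fell into 176 groups, 130 of them pairs, and 451 stood alone. This share follows the number of regions and cannot be set against larger sets. It was also counted how often the nearest other strong untreated-labelled region lacked a counterpart, which 7.06% of all strong regions of that list did. It did for 80 of 873 (9.16%, interval 7.33 to 11.3), against 747 of 11484 strong regions with a counterpart (6.505%, interval 6.06 to 6.97). Regions that are each other's nearest are counted from both sides. These counts are therefore not separate draws, and the intervals are too narrow. In the lactate-labelled list the same measure was 16.8% against 12.3%, beside 13.6% of all its strong regions. Within 50 kb, leaving out the nearest 1 kb, 211 of the regions (24.2%, interval 21.4 to 27.2) had no lactate-labelled region and 233 (26.7%, interval 23.8 to 29.8) no other untreated-labelled region, against 14.7% and 17.04% of regions with a counterpart at a fold enrichment of 5.5 to 7. The mirrored lactate-labelled regions were near the set, at 22.7% with no other lactate-labelled region and 26.4% with no untreated-labelled region.

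The largest groups held 6 regions. On chromosome 7, from 17405813 to 19940097, there was 1 in SNX13 (6.07), the pair in HDAC9 (5.59 and 5.95) and regions 59.8 kb from AHR (5.56), 253.1 kb from POLR1F (5.56) and 166.3 kb from TMEM196 (5.56). They were 37.5% of the 16 strong untreated-labelled regions there. Each stretch was picked for these regions and ends at the outermost of them, so such a share is high by construction. In this one, 27 of 51 untreated-labelled and 23 of 47 lactate-labelled regions lacked a counterpart. On chromosome 2, from 167689527 to 170886629, regions lay in B3GALT1 (6.46), STK39 (6.20), METTL5 (5.77) and MYO3B (6.07), at a start inside DHRS9 (6.48) and 25.4 kb from GAD1 (5.71). They were 27.3% of the 22 strong untreated-labelled regions there. A group of 5 on chromosome 3, from 191136396 to 192772820, lay in and around OSTN (6.31 and, 62.7 kb away, 6.61), and nearest to PYDC2 (5.96), FGF12 (6.47) and MB21D2 (7.45). This stretch held 19 lactate-labelled and 30 untreated-labelled regions in all, of which 6 and 17 were without a region of the other list within 1 kb. Another 5 on chromosome 2, from 159497288 to 161208751, took in BAZ2B (8.94), LY75-CD302 (5.65), ITGB6 (5.56) and TANK (5.96) and a region near RBMS1 (5.96), where 14 of 41 lactate-labelled regions and 8 of 35 untreated-labelled regions lacked a counterpart.

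Of 353 host genes 17 held 2 or more of the regions, and PRELID2 and RPTOR held 3. PRELID2 also held 3 of the mirrored lactate-labelled regions, with 8 regions of each list inside, and RPTOR and HDAC9 held 1 mirrored region each. RPTOR, which encodes the Raptor subunit of the growth regulator mTORC1, held 12 lactate-labelled and 17 untreated-labelled regions, and its 3 without a counterpart had 14, 13 and 12 tags (fold enrichments 5.51, 5.60 and 5.51). The strongest regions of RPTOR overlapped between the lists, with 12.03 in the lactate-labelled list and 7.66 in the untreated-labelled list. HDAC9 held 10 lactate-labelled and 19 untreated-labelled regions, and its pair without a counterpart had 15 and 14 tags.

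APAF1, which encodes the apoptosome scaffold that activates caspase-9, held 0 lactate-labelled and 4 untreated-labelled regions inside it. Of these, 2 were in the set, with 15 tags (interval 8.40 to 24.7, unlisted limit 6) and 12 tags (interval 6.20 to 21.0, unlisted limit 5), and the other 2 had 10 and 7 tags. Tags enter the enrichment that chose the regions, so these intervals are no measure of a difference between the libraries. At the start of APAF1 both lists had a region, with 30 and 32 tags and fold enrichments of 6.60 and 7.97. APAF1, and the genes of the plot of regions along 3 genes, were picked out after their values were seen. Such genes were few in both directions. Of genes with at least 4 regions of a list inside, 20 of 1894 in the lactate-labelled list had 0 of the untreated-labelled list, and 6 of 1490 in the untreated-labelled list had 0 of the lactate-labelled list.

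**Figure D4:**
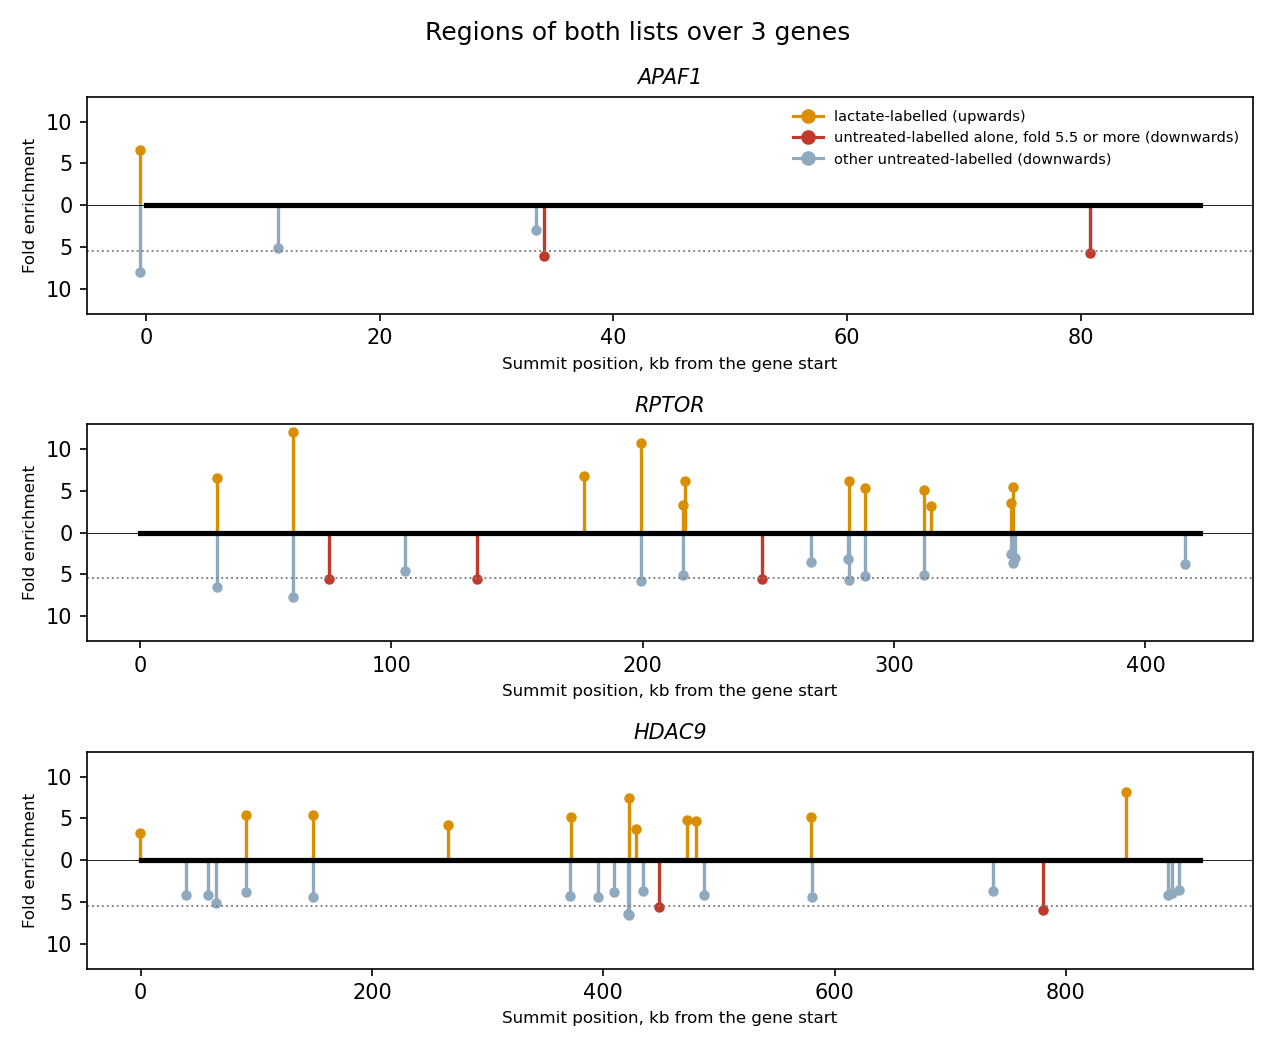
Fold enrichment (y axis) of every region of both lists against the distance of its summit from the gene start in kb (x axis), over 3 genes drawn as black bars. Lactate-labelled regions point up (orange) and untreated-labelled regions down, with those in the set in red and others in light blue, and the dotted line marks 5.5. The tallest lactate-labelled region of RPTOR (12.03) faces an untreated-labelled one, while the red ones face none and, at 5.51 to 6.15, lie close to the line.

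By chromosome, the share of strong untreated-labelled regions without a counterpart was highest on X (24 of 217, 11.1%, interval 7.22 to 16.01) and 4 (36 of 353, 10.2%, interval 7.25 to 13.8) and lowest on 19 (10 of 346, 2.89%, interval 1.39 to 5.25), against 7.06% over all. Chromosome 19 is the most gene-dense human chromosome, and 4 of its 10 regions were at ends of protein-coding genes: ZNF530, ZNF175, ZNF121 and LGALS14. The intervals of the other 20 of the 23 chromosomes took in 7.06%. Copy number in this cell line was not examined.

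**Figure D5:**
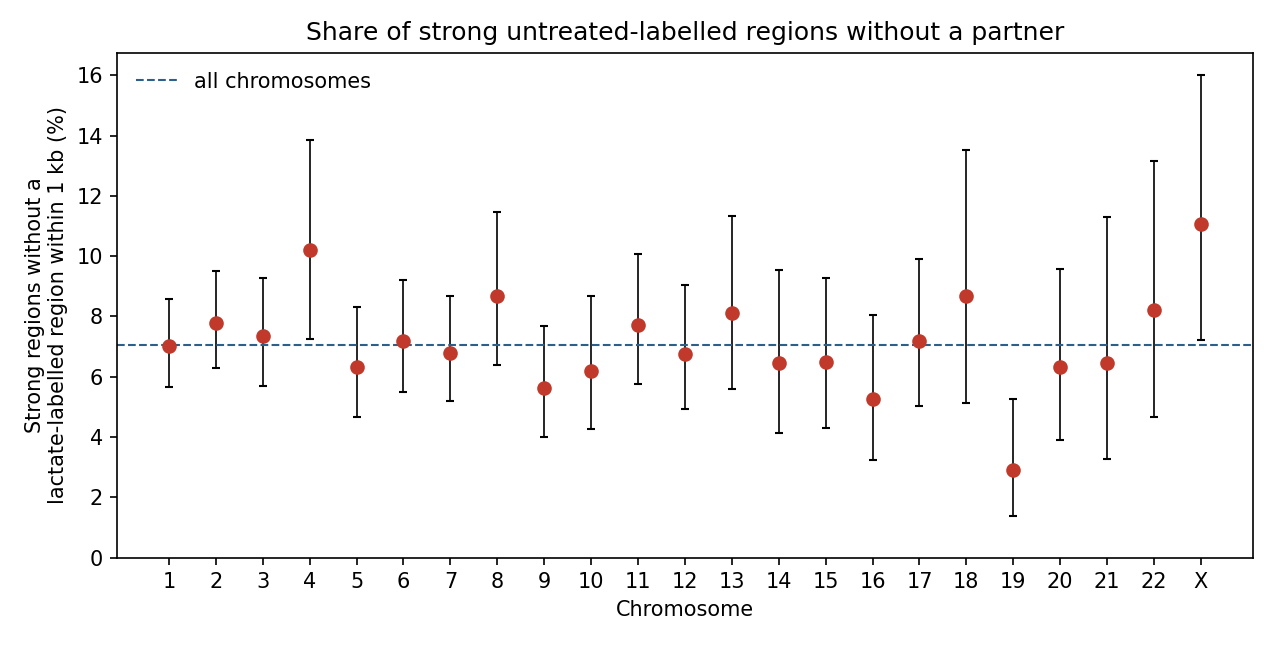
Percentage of strong untreated-labelled regions (fold enrichment of at least 5.5) that had no lactate-labelled region within 1 kb (y axis), by chromosome (x axis), with exact 95% intervals for counting error. The dashed line is the share over all chromosomes, 7.06%, and chromosome 19 lies lowest at 2.89%.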

How the data were processed

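CUT&Tag for lactylated lysine was run on CAL27 cells, 1 library from cells given lactate and 1 from untreated cells. The submitters' processing notes name hg38, BWA, MACS2 2.1.0 and fastp 0.20.0. MACS 2.1.0.20150420 called each library by itself with no control, per the file headers, keeping peaks at q of 0.05 and moving tag ends by -100 bp before extending them to 200 bp. The deposited pileup is a signal in tags at the summit, not scaled for depth. The deposited fold enrichment is the authors' ratio of summit to local background, each raised by 1.

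Rows with the same start and end were collapsed to the summit of highest enrichment. Local background was recomputed as (pileup + 1)/fold - 1. The −log10 p was recomputed from it as a Poisson probability of the pileup or more. Genes and promoter windows came from RefSeq for GRCh38.p14, the build of the peaks. Strand and starts came from the promoter table, which was not used for chromosome 8 and does not cover every gene. Gene ends were taken within 1 kb. The regions, lists and tests were chosen with earlier results of these data known. Named were the 12 regions of highest enrichment, the 20 highest at gene ends, the 10 highest inside genes and 5 over 10 kb from genes, the 4 largest groups, up to 3 per gene list and those at the limits. A few items that this rule names are not reported here. Some further members of the lists and host genes are named beside them. No test was made, since each group has a single library. The distance measure recovered 1000 of 1000 planted distances in simulated data, and bedtools 2.31.1 also counted 873 regions. Python 3.11.15, pandas 2.3.3, numpy 2.4.6 and SciPy 1.17.1 were used.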

Additional observations from a re-analysis of the deposited data

Results flagged for a closer look

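Sequences other than chromosomes 1 to 22 and X were left out of the comparisons. On unplaced sequences, 2 of 220 regions of the untreated-labelled list met the same rule. They are flagged as signal in data that the comparisons did not use. In the lactate-labelled list 5 of 197 met it in the mirrored direction. On chromosome Y the rule was met by 7 of 39 untreated-labelled regions and, in the mirrored direction, by 3 of 36 lactate-labelled regions. Reads on unplaced sequences are uncertain.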

How the results depend on the processing

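The count of 873 regions became 1695 with a lower limit of 5 on fold enrichment, 414 with 6 and 417 with the recomputed −log10 p in its place, of which 326 were among the 873. The share at protein-coding gene ends, 7.22%, became 5.56% at 6 and 10.1% with −log10 p. The share over 10 kb from any gene end, 55.8%, became 59.7% at 6, 44.8% with −log10 p and 78.5% with protein-coding genes alone. The share within 1 Mb of another region, 48.3%, became 71.7% at 5, 27.1% at 6, 53.9% when regions only had to be free of overlap, 38.8% with no lactate-labelled region within 10 kb and 33.6% with −log10 p. With a linking distance of 100 kb it was 8.25% and with 3 Mb 82.1%. It follows the number of regions and the distance by construction.

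The difference from regions with a counterpart was computed only for the settings named in this paragraph, and it kept its direction in each. For the other settings only the share of the set itself was recomputed. At gene ends it was -18.2 percentage points, -17.0 against regions of a fold enrichment of 5.5 to 7 and -13.3 with both sets under 20 tags, and over 10 kb from any gene end 15.6, 10.1 with both sets under 20 tags and 9.65 with −log10 p. Holding both sets under 20 tags and ranking both by −log10 p were added after the data were seen. For the other results that moved, the cause was not tested. No paired analysis was possible because each group has 1 library, and for the same reason no library could be left out. Depth limits what can be listed to about 6 tags or more at the lowest background.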
